A study of Orbicella faveolata with 48 samples.

Results

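Fragments of the mountainous star coral Orbicella faveolata from inshore reefs were set against fragments from offshore reefs of the Florida Keys, all kept at the control temperature of 30 °C and sampled at 5 days. The labels alone chose the 12 libraries, of 48 in the series. The inshore controls were 9 fragments under 4 genotype labels: In1 (colony tags A3, A4 and A6), In2 (BLY5 and BLY6), In3 (D3, D5 and D6) and In4 (B4). The offshore controls were 3 fragments under 3 labels: O1 (C1), O2 (C2) and O5 (C5). By their label such fragments share a genotype, so their counts were summed and the 7 labels were the units, 4 inshore against 3 offshore. All of these fragments had passed through the same tank acclimation without a rise in temperature. Used beside them were fragments heated to 33 °C and sampled at 5 days, controls at 30 °C of 31 days, and fragments heated to 32 °C of 31 days, each group with 9 inshore and 3 offshore libraries.

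Reef-building corals carry photosynthetic algae inside their cells and live on the sugars these make. Inshore reefs of the Florida Keys lie in more turbid water, with wider swings of temperature than reefs farther offshore, and corals from the 2 habitats are often compared for how they stand heat. A difference already present at the control temperature can come from the colony's inherited make-up or from its past, and a single comparison of colonies after a few days in shared tanks does not separate these.

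The RNA came from whole coral tissue, with the algae in it, and was made into stranded mRNA libraries. A feature here is 1 assembled transcript of the coral table, and its level is given as CPM, its count scaled to the coral total of the library, which is not corrected for length, so levels are compared between fragments and not between features. The deposited table pairs no feature with a gene name, no sequence was used here, and the tissue label could not be checked against marker genes. The coral total was 5017000 to 6012520 counts per fragment, and the sums held 50748200 counts inshore and 16160400 offshore. In tissue, a lower level can mean fewer cells of a type or less RNA per cell, and these cannot be told apart. Nothing in the labels says that the 3 offshore labels stand for more than 1 reef, so habitat and reef cannot be told apart either.

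Fragments of 1 genotype label lay closer to each other than to any other fragments, of the same habitat or not. Of the squared distance between the 7 label profiles (log2 CPM with a prior count of 2), 18.2% went with habitat (exact permutation test over the 35 ways to place 3 of 7 labels offshore, p = 0.171, where 0.0286 is the smallest possible). With 1 fragment per label, so that depths were closer (5018750 to 5972900 coral counts), the share was 17.1% (exact permutation p = 0.343). Among the 12 single fragments the genotype label went with 81.6% of the squared distance and habitat with 12.3%. Each label lies in 1 habitat and several labels held 1 fragment, so the label share is the larger by construction. Fragments of 1 label lay at a median root mean square distance of 0.65 log2 units from each other (7 pairs, 0.59 to 0.76). An inshore and an offshore fragment lay 1.09 apart (27 pairs, 1.005 to 1.15), 2 inshore fragments of different labels 1.10 apart (29 pairs, 1.01 to 1.19) and 2 offshore fragments 1.07 apart (3 pairs, 1.03 to 1.09). The median distance between habitats lay between the medians within each habitat. With 1 fragment per label it was 1.072 (12 pairs), slightly above the 1.068 of inshore pairs (6) and the 1.066 of offshore pairs (3).

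**Figure D1:**
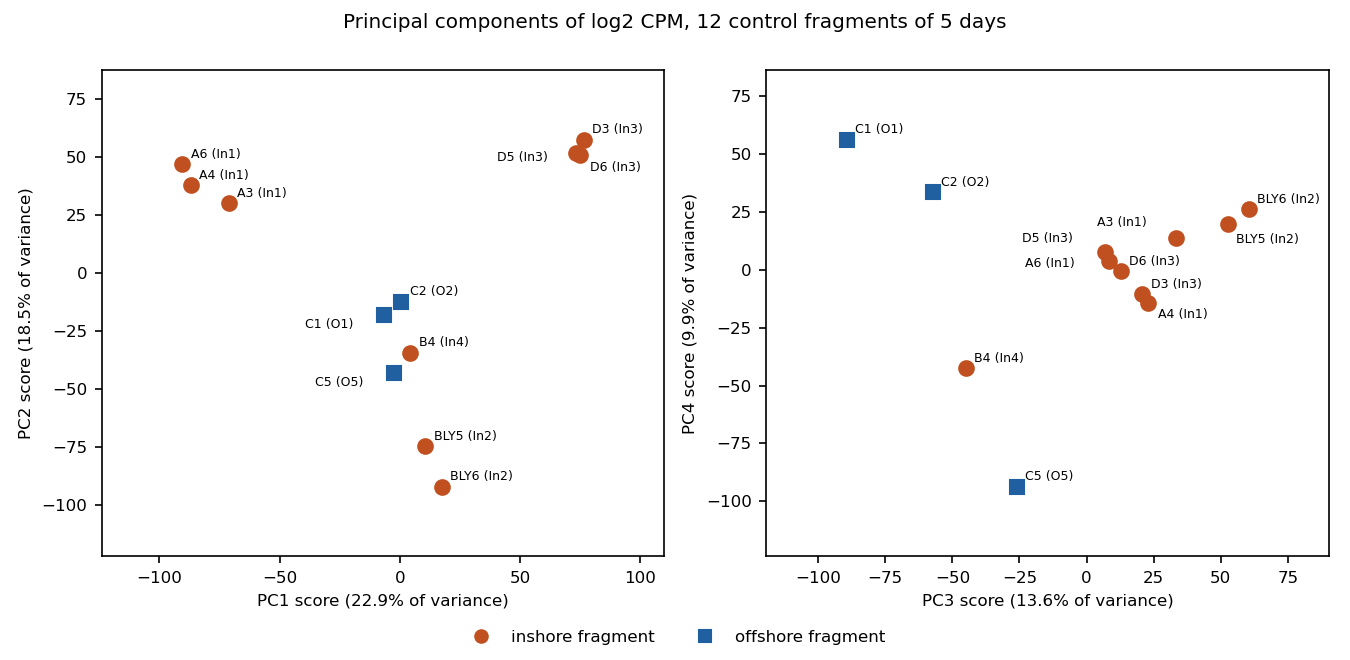
Scores of the 12 control fragments of 5 days on principal components 1 to 4 of log2 CPM, with the share of variance on each axis, inshore fragments as circles and offshore fragments as squares. Components 1 and 2 (22.9% and 18.5%) set In1, In3 and In2 apart, the labels with more than 1 fragment. They leave B4 of In4 near the 3 offshore fragments, each from a label with 1 fragment.

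The principal components also set labels apart. Component 1 held 22.9% of the variance and placed the 3 fragments of In1 at one end and the 3 of In3 at the other, with offshore fragments between them. Component 2 held 18.5% and had the fragments of In2 at its low end. Component 3 held 13.6%, and there C1, C2, C5 and the inshore fragment B4 all lay below the other 8 fragments. Each of these came from a label with 1 fragment, and labels with more fragments weigh more on the components. Their lying together is therefore not read as B4 being like the offshore fragments. Component 4 held 9.91% and set C5 against C1 and C2, so the offshore colonies differed among themselves on it.

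No single feature passed the test between the habitats. Of 27608 features tested with edgeR's quasi-likelihood test, 0 (0%) had a Benjamini-Hochberg adjusted p below 0.05, and the smallest adjusted p was 0.133. Without adjustment, 1579 features (5.72%) had p below 0.05, 870 of them higher inshore and 709 higher offshore. DESeq2, an alternative tool, called 204 of 38962 features (0.524%), 138 higher inshore and 66 higher offshore. Of the 158 DESeq2 calls that edgeR also tested, 145 had groups that did not overlap. The standard error of a feature's log2 fold change had a median of 0.33, and the log2 fold change itself a median of 0.00.

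Features whose 4 inshore labels all lay above the 3 offshore labels numbered 919 (3.33% of those tested), and 965 (3.5%) had all inshore labels below. Labels placed at random would separate a feature each way in 1 of 35 ways, a share of 0.0286, so both counts lay near that share. Of the 919, 359 were at least 2-fold higher inshore, and of the 965, 167 were at least 2-fold higher offshore. At least 4-fold apart were 133 and 50 of them. The same split was not counted over all tested features, so it is not read as a trait of the separated ones. Of the 1884 separated features, 526 were also separated when the 12 single fragments were compared, 9 against 3. The filter on low counts could keep a feature through 1 habitat alone, so these counts are descriptions.

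**Figure D2:**
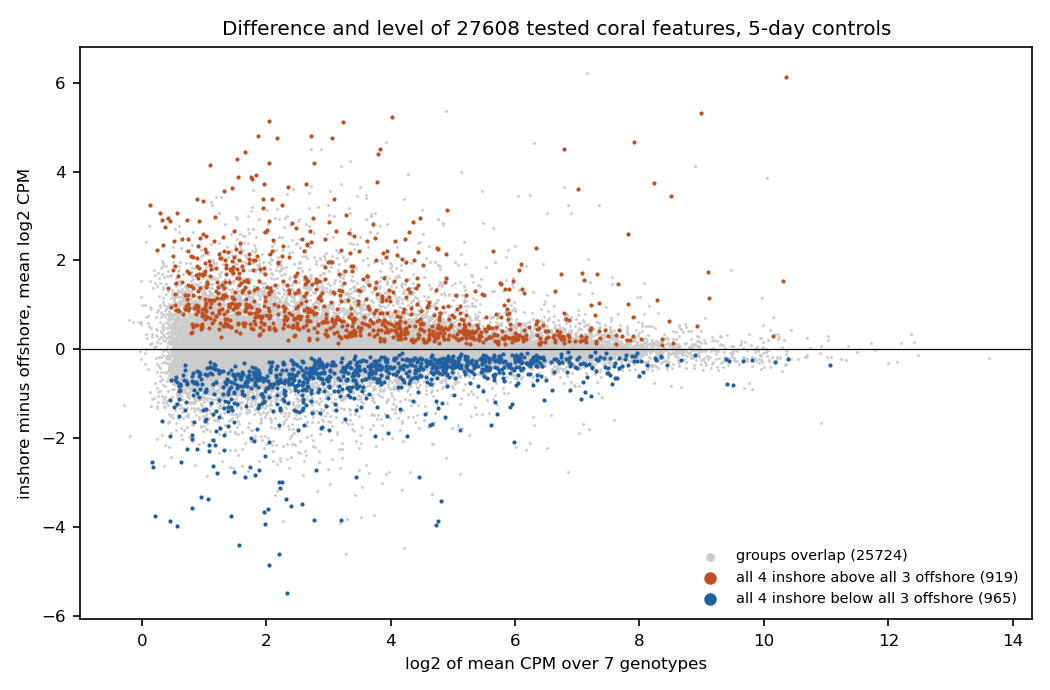
Each point is 1 tested feature, with the log2 of its mean CPM over the 7 genotype labels across and the mean log2 CPM of inshore labels minus that of offshore labels upwards. Separated features (orange, 919 higher inshore, and blue, 965 higher offshore) stood among the other features at all levels, and those above 4-fold were mostly on the inshore side.

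The 5 features with the smallest p among those higher inshore did not pass the threshold, and all were separated between the habitats. OFAVBQ_DN218230_c4_g4_i1 had counts in every inshore fragment and in no offshore one. It stood at 6.61, 6.89, 8.60 and 6.91 CPM in In1, In2, In3 and In4, and at 0 CPM in O1, O2 and O5, with 371 counts inshore and 0 offshore. Against the limit that a count of 0 allows (3 counts over the offshore group), that is at least 39.3-fold higher inshore (edgeR adjusted p = 0.172, Benjamini-Hochberg). The 9 inshore fragments spanned only 5.14 to 8.84 CPM, so the level was alike across 4 labels that differed widely in other features.

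OFAVBQ_DN225344_c1_g3_i1 stood at 13.4, 11.4, 12.5 and 10.6 CPM in In1, In2, In3 and In4, against 1.40, 2.70 and 2.003 CPM in O1, O2 and O5. The means were 11.96 ± 1.24 CPM inshore (SD, n = 4) and 2.03 ± 0.65 CPM offshore (SD, n = 3), a log2 fold change of 2.54 (SE 0.29, edgeR adjusted p = 0.241). Single inshore fragments spread more than the sums, with a lowest value of 5.61 and a highest of 21.1 CPM, still above the offshore values. OFAVBQ_DN215510_c3_g1_i2 stood at 22.0, 18.1, 25.5 and 18.0 CPM inshore and at 6.98, 7.58 and 5.61 CPM offshore (log2 fold change 1.63, SE 0.22, edgeR adjusted p = 0.306). Its offshore values lay close together, and so did those of the next feature.

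OFAVBQ_DN224482_c3_g1_i3 had 29.1, 25.9, 29.1 and 22.3 CPM in the inshore labels, against 10.4, 10.4 and 11.2 CPM in the offshore labels (log2 fold change 1.32, SE 0.17, edgeR adjusted p = 0.259). The most abundant of the 5, OFAVBQ_DN224344_c4_g1_i5, had 58.4, 67.8, 60.1 and 52.8 CPM inshore and 25.7, 31.3 and 20.6 CPM offshore (log2 fold change 1.21, SE 0.17, edgeR adjusted p = 0.322). In all 5 the gap between the habitats was wider than the spread of labels within either.

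Of the 5 features with the smallest p among those higher offshore, 2 were close to 0 inshore. OFAVBQ_DN212752_c2_g1_i6, which had the smallest p of all, stood at 0.06, 0.10, 0.06 and 0.19 CPM in In1, In2, In3 and In4, and at 9.37, 14.3 and 4.81 CPM in O1, O2 and O5 (edgeR adjusted p = 0.133). It had 4 counts in all inshore fragments and 156 in the 3 offshore ones. Per count sequenced, offshore stood 123-fold above inshore, with an exact 95% interval of 47.0 to 456 that covers counting error only. OFAVBQ_DN199192_c0_g1_i1 had 1 count inshore, in B4, and 183 counts offshore, at 17.7, 7.24 and 10.2 CPM in O1, O2 and O5 (edgeR adjusted p = 0.172). That is a ratio of offshore to inshore of 576 with an exact 95% interval of 102 to 22888.

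The other 3 had low inshore levels and higher but uneven offshore ones. OFAVBQ_DN205064_c4_g1_i2 stood at 0.93, 0.96, 0.69 and 0.96 CPM inshore and at 8.97, 4.21 and 9.01 CPM offshore (log2 fold change -3.06, SE 0.38, edgeR adjusted p = 0.259). OFAVBQ_DN218621_c3_g1_i1 had 0.81, 0.77, 0.69 and 0.58 CPM inshore, against 3.99, 15.3 and 12.8 CPM offshore (log2 fold change -3.87, SE 0.49, edgeR adjusted p = 0.259). OFAVBQ_DN209676_c2_g1_i9 had 0.29, 0.10, 0.29 and 0.19 CPM inshore, against 1.99, 6.23 and 5.61 CPM offshore (log2 fold change -4.26, SE 0.57, edgeR adjusted p = 0.306). O1 was the lowest offshore label in the last 2 of these and O2 in the first. DESeq2 gave each of the 10 features an adjusted p below 0.05, the highest being 2.01e-05.

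**Figure D3:**
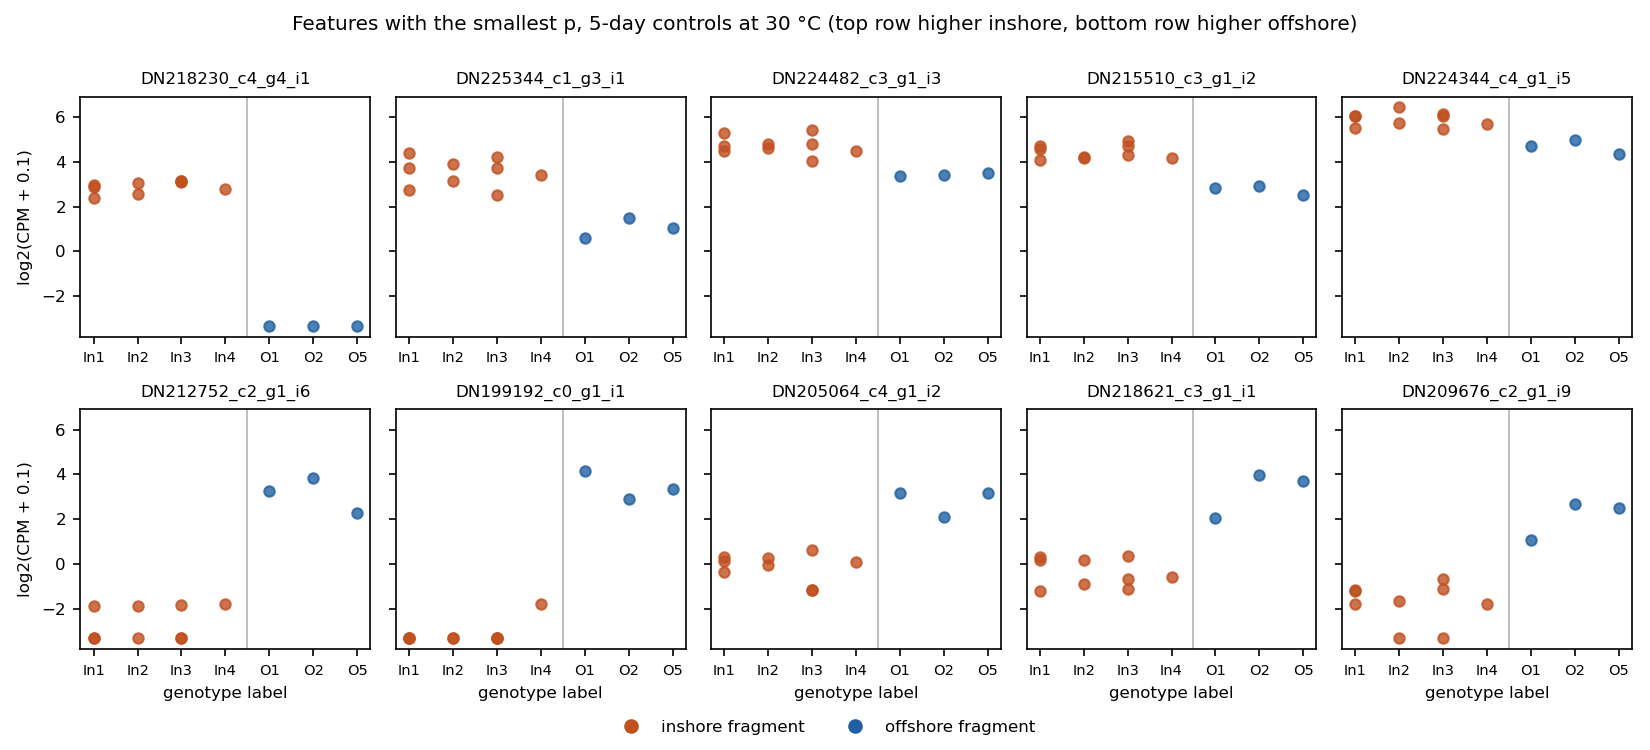
Levels of the 10 features with the smallest p as log2(CPM + 0.1), 1 point per fragment, by genotype label, with inshore labels left of the line and offshore labels right of it. In every panel the 9 inshore points lie on one side of the 3 offshore points. The upper panels are the 5 features higher inshore and the lower panels the 5 higher offshore, and in the first upper panel all 3 offshore fragments are at 0 counts.

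Some features were present in 1 habitat and at 0 counts in the other. With at least 1 CPM in each label of one habitat and no count in any fragment of the other, 4 features were inshore only (0.0145% of those tested) and 3 offshore only (0.0109%). The inshore ones were OFAVBQ_DN218230_c4_g4_i1, OFAVBQ_DN213196_c1_g2_i1, OFAVBQ_DN221892_c0_g1_i1 and OFAVBQ_DN218141_c0_g12_i1, at least 20.4-fold to 39.3-fold above the offshore limit. The offshore ones were OFAVBQ_DN222744_c1_g3_i1, OFAVBQ_DN212752_c2_g3_i2 and OFAVBQ_DN220304_c4_g1_i1, at least 46.2-fold to 56.7-fold above the inshore limit, which is lower because more was sequenced inshore. They were picked by their values, which are therefore a description. Over all 4 arms, OFAVBQ_DN218230_c4_g4_i1 and OFAVBQ_DN213196_c1_g2_i1 had counts in 0 of 12 offshore libraries. OFAVBQ_DN221892_c0_g1_i1 and OFAVBQ_DN218141_c0_g12_i1 had counts in 4 and 3 of them. The 3 offshore ones, in the order named, had counts in 4, 5 and 5 of 36 inshore libraries.

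These 7 were not equally even within the inshore colonies. OFAVBQ_DN218141_c0_g12_i1 was at 5.80, 2.49, 2.66 and 4.03 CPM in In1, In2, In3 and In4. OFAVBQ_DN213196_c1_g2_i1 was at 2.55, 6.13, 6.52 and 10.4 CPM. OFAVBQ_DN221892_c0_g1_i1 was at 1.16, 10.1, 4.45 and 6.53 CPM, but A3, A6, D5 and D6 had no count of it, so its presence followed single fragments rather than labels.

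Identifiers that share their first parts come from 1 read component of the assembly, a group of related sequences. Of 3247 components with at least 2 tested features, 28 held at least 2 separated features, and 7 held a feature separated one way and another separated the opposite way. In the component OFAVBQ_DN222744_c1, OFAVBQ_DN222744_c1_g2_i3 was at 7.66, 2.97, 13.05 and 7.68 CPM inshore and at 0.20, 0 and 0 CPM offshore. Its partner OFAVBQ_DN222744_c1_g3_i1 was at 0 CPM in all 4 inshore labels and at 5.78, 2.19 and 2.40 CPM offshore. In OFAVBQ_DN202012_c0, OFAVBQ_DN202012_c0_g2_i1 had 30.1, 55.4, 58.8 and 31.9 CPM inshore against 15.8, 13.1 and 27.0 CPM offshore. Its partner OFAVBQ_DN202012_c0_g1_i4 had 12.2, 26.0, 9.81 and 15.7 CPM inshore against 32.3, 34.2 and 74.7 CPM offshore. Estimated counts can be split between near-identical sequences, so the levels of such partners are uncertain one by one. The component OFAVBQ_DN212752_c2 was among those with a pair that went the same way, OFAVBQ_DN212752_c2_g1_i6 and the offshore-only OFAVBQ_DN212752_c2_g3_i2.

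The most abundant separated features were chosen after their values were seen, as the 5 with the highest mean CPM on each side among those at least 2-fold apart. On the inshore side they were OFAVBQ_DN215677_c1_g1_i9, OFAVBQ_DN223455_c2_g1_i4, OFAVBQ_DN224180_c1_g1_i2, OFAVBQ_DN201184_c2_g1_i3 and OFAVBQ_DN222743_c1_g3_i2. OFAVBQ_DN215677_c1_g1_i9 stood at 210, 65.9, 1693 and 7173 CPM in In1, In2, In3 and In4, against 23.3, 1.52 and 18.8 CPM offshore. The In3 value came from D6 at 5044 CPM, while D3 and D5 were at 36.04 and 30.2 CPM. OFAVBQ_DN222743_c1_g3_i2 was likewise at 2903 CPM in B4 and 1641 CPM in D6, with 2.72 CPM in the lowest inshore fragment. B4 and D6 thus set the inshore level of both, and A3 lay below C1 in each. OFAVBQ_DN223455_c2_g1_i4 had 1092, 1180, 1556 and 3247 CPM inshore against 433, 414 and 937 CPM offshore.

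OFAVBQ_DN224180_c1_g1_i2 had 549, 829, 637 and 884 CPM inshore against 257, 290 and 441 CPM offshore, a more even difference between label sums. Its single fragments were uneven, with BLY5 at 263 and BLY6 at 1564 CPM, and D5 at 257 and D6 at 1263 CPM. They overlapped with the offshore fragments, where C5 was at 439 CPM.

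On the offshore side OFAVBQ_DN207747_c0_g2_i1 had 98.5, 139, 65.8 and 110 CPM inshore against 222, 236 and 173 CPM offshore (log2 fold change -1.03, SE 0.24, edgeR adjusted p = 0.787). OFAVBQ_DN220451_c6_g1_i7 had 61.9, 83.9, 71.1 and 24.4 CPM inshore against 99.5, 177 and 99.8 CPM offshore. OFAVBQ_DN225382_c1_g1_i3 was at 24.6 CPM in In3 and at 101 to 159 CPM in the other inshore labels, against 162, 197 and 175 CPM offshore. The last 2, OFAVBQ_DN206155_c1_g1_i6 and OFAVBQ_DN213133_c0_g2_i1, averaged 31.7 and 34.9 CPM inshore and 106 and 97.7 CPM offshore. The offshore mean of OFAVBQ_DN213133_c0_g2_i1 rested on O1, at 191 CPM, with 54.6 and 47.7 CPM in O2 and O5.

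Whether the control differences recurred was read in libraries that the comparison did not use. In the fragments heated for 5 days, which carry the same tags, edgeR called 0 of 29143 features (1689 at an unadjusted p below 0.05, 251 by DESeq2), and 2063 (7.08%) were separated either way. Separated to the same side in both arms were 357 features, 18.9% of the control list and 17.3% of the heated list, and 11 were separated to opposite sides. In the controls of 31 days edgeR called 1 of 27795 features (84 by DESeq2), and 2433 (8.75%) were separated. Of these, 157 were separated to the same side as at 5 days, 8.33% of the 5-day list and 6.45% of the 31-day list, and 23 to opposite sides.

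The feature called at 31 days was OFAVBQ_DN217919_c1_g3_i1, at 0.16, 0.09, 0.05 and 0.21 CPM inshore and 17.0, 33.1 and 14.9 CPM offshore (edgeR adjusted p = 0.0361). At 5 days it did not pass the filter on low counts. It was then at 12.2 and 9.06 CPM in the controls C2 and C5 but at 0 CPM in C1, a colony with no library at 31 days, and at no more than 1.34 CPM in any inshore control.

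All 10 features with the smallest p in the 5-day controls were separated the same way in the heated arm of 5 days. OFAVBQ_DN215510_c3_g1_i2 was at 28.2, 32.1, 31.5 and 25.9 CPM in heated inshore labels and at 8.15, 7.13 and 6.68 CPM in heated offshore labels (log2 fold change 2.01, SE 0.18, edgeR adjusted p = 0.147). In the label sums of the 31-day controls, 3 of the 10 were separated: OFAVBQ_DN215510_c3_g1_i2, OFAVBQ_DN218621_c3_g1_i1 and OFAVBQ_DN209676_c2_g1_i9. The label In2 then joined the tags B2 and B3, which were unlike. OFAVBQ_DN215510_c3_g1_i2 was at 27.8 CPM in B2 but at 7.90 CPM in B3, below C4 (8.66 CPM) and C5 (9.35 CPM). OFAVBQ_DN218621_c3_g1_i1 was at 2.17 CPM in B3 but at 21.2 CPM in B2, above C4 (12.3 CPM). Single libraries of both features thus overlapped between the habitats. OFAVBQ_DN224482_c3_g1_i3 had 29.6, 4.52, 43.2 and 36.9 CPM in inshore controls of 31 days and 3.06, 111 and 43.4 CPM in offshore ones, so its groups overlapped there. None of the abundant features named on the inshore side was separated in either arm. In 31-day controls their log2 fold changes were 3.07, -3.72, -3.21, -4.04 and -5.02 in the order named, the negative ones resting on the offshore control C4. On the offshore side OFAVBQ_DN207747_c0_g2_i1 and OFAVBQ_DN220451_c6_g1_i7 were separated only in the heated arm and OFAVBQ_DN225382_c1_g1_i3 only in 31-day controls. The others there were separated in neither.

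At 31 days the labels In2, In4, O1 and O2 stood for none of their tags of 5 days. The label In2 then stood for tags B2 and B3, and the label O2 for tag C4, and none of the 3 tags occurs at 5 days. In the controls of 31 days OFAVBQ_DN212752_c2_g1_i6 was at 29.6 CPM in B2 and 16.4 CPM in B3, and at no more than 0.44 CPM in the 7 other inshore fragments, against 16.7, 1.40 and 13.9 CPM in C2, C4 and C5. OFAVBQ_DN199192_c0_g1_i1 was at 13.4 CPM in B2, 16.8 CPM in B3 and 0 CPM in the other inshore controls, against 6.52, 0 and 6.12 CPM in C2, C4 and C5. OFAVBQ_DN218230_c4_g4_i1 was at 0 CPM in B2, B3, C2, C4 and C5 alike and at 4.80 to 8.95 CPM in the 7 other inshore controls. For these 3 features B2 and B3 had levels like those of the offshore tags C2 and C5. Others of the 10 features with the smallest p split B2 from B3 in these controls. OFAVBQ_DN205064_c4_g1_i2 was at 1.12 CPM in B2 and 12.6 CPM in B3. OFAVBQ_DN218621_c3_g1_i1 was at 21.2 and 2.17 CPM, and OFAVBQ_DN215510_c3_g1_i2 at 27.8 and 7.90 CPM.

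Heated libraries of 31 days repeated the offshore-like levels of B2 and B3 in OFAVBQ_DN212752_c2_g1_i6 and OFAVBQ_DN199192_c0_g1_i1. OFAVBQ_DN212752_c2_g1_i6 was at 23.6 CPM in heated B2 and 16.6 CPM in heated B3, and OFAVBQ_DN199192_c0_g1_i1 at 13.3 and 45.2 CPM. Heated C4 had 10.8 CPM of OFAVBQ_DN212752_c2_g1_i6 and again 0 CPM of OFAVBQ_DN199192_c0_g1_i1. In these features the habitat difference of the 5-day controls did not extend to B2 and B3, nor in OFAVBQ_DN199192_c0_g1_i1 to C4.

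The same could be counted over many features. For the 494 separated features at least 2-fold apart in the mean of single-fragment values (329 higher inshore, 165 higher offshore), each library was placed on the inshore or the offshore side of the midpoint between the 2 habitat means of 5-day controls. In the 5-day controls, which chose the features, 75.7% to 91.1% of features lay on the inshore side in inshore fragments and 6.68% to 11.1% in offshore ones. In heated fragments of 5 days the shares were 74.1% to 85.6% inshore and 28.1% to 31.0% offshore, with no overlap. These fragments carry the same tags and labels as the controls that chose the features. The lack of overlap therefore does not show that the differences extend to other colonies.

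At 31 days the tags A, D and BLY of the inshore controls lay at 66.4% to 82.4%, and the offshore controls C2 and C5 at 17.0% and 30.2%. The inshore controls B2 and B3 lay at 43.7% and 43.1%, and the offshore control C4 at 60.3%. Under heat B2, B3 and C4 lay at 56.7%, 61.1% and 56.9%, against 73.3% to 78.5% in the other inshore libraries and 31.0% and 18.2% in C2 and C5. B2, B3 and C4 thus lay nearer the middle than the other tags, and among controls C4 was nearer to the inshore side than B2 and B3. With all separated features and no 2-fold minimum, the controls C4, C2 and C5 lay at 66.8%, 27.8% and 36.2%, and B2 and B3 at 43.5% and 43.9%. Tags A2, A5 and D4 were also absent from the 5-day controls, and they lay at 74.9% to 78.5%. They carry the labels In1 and In3, which helped to set the midpoint, so by their labels they are not new genotypes.

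**Figure D4:**
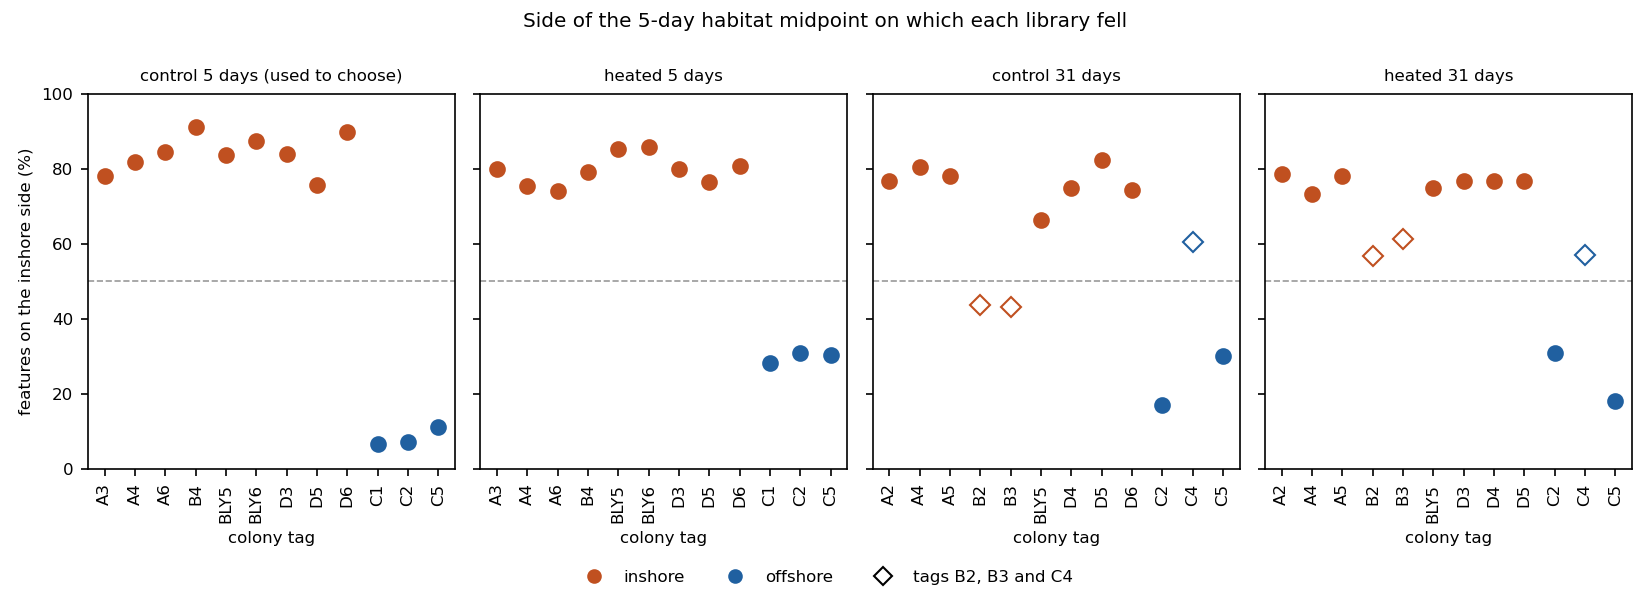
Percent of the 494 separated features that lay on the inshore side of the 5-day midpoint, for each of the 48 libraries, by arm and colony tag, inshore tags left of offshore tags; the dashed line marks 50%. Diamonds are the tags B2, B3 and C4, at 43.1% to 61.1%, between the other inshore tags (66.4% or more) and the other offshore tags (31.0% or less).

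Few features kept the habitats apart in all 3 arms compared. Of 25682 features tested in the controls of 5 days, the heated fragments of 5 days and the controls of 31 days, 62 were separated the same way in all 3, 36 higher inshore and 26 higher offshore. OFAVBQ_DN213654_c1_g3_i1 alone kept a gap of at least 2-fold between the nearest labels in each arm. In 5-day controls it was at 2.90, 1.92, 13.9 and 9.79 CPM inshore and at 0, 0 and 0.40 CPM offshore. OFAVBQ_DN219063_c3_g1_i9, the most abundant of those with the widest gaps, was at 96.3, 66.2, 57.8 and 106 CPM inshore and 26.9, 32.5 and 33.9 CPM offshore.

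Across single libraries of all 4 arms, 36 inshore and 12 offshore, 3 of 27608 features did not overlap between the habitats. The 27608 are those tested in the 5-day controls, and the 3 are named here because they did not overlap. OFAVBQ_DN213196_c1_g2_i1 had counts in 36 of 36 inshore libraries (0.163 to 16.9 CPM) and in 0 of 12 offshore ones, a narrow gap at its lowest inshore library. OFAVBQ_DN195572_c1_g1_i1 was at 0 to 10.6 CPM in inshore libraries and at 14.5 to 36.9 CPM in offshore ones. Within the inshore controls of 5 days it was itself split by colony, at 7.95 and 4.03 CPM in In1 and In4 and at 0 and 0.12 CPM in In2 and In3, against 16.9, 17.5 and 18.2 CPM in O1, O2 and O5. OFAVBQ_DN206936_c4_g1_i7 was at 0 to 1.74 CPM inshore and 1.83 to 7.26 CPM offshore, also a narrow gap.

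Each control had its closest match among libraries of the same tag letters or, offshore, the same tag. Over 18735 features, the deviations of each 5-day control from the mean were ranked against those of the 36 libraries outside the comparison. The best match carried the same tag letters, or offshore the same tag, in 12 of 12 controls (Spearman rho 0.46 to 0.64, as a description across features of libraries that share an assembly and a normalization). The best match with other letters or another offshore tag reached 0.02 to 0.28. The label did not always follow: C2 was labelled O2 at 5 days and O1 at 31 days, with a rho of 0.64 between its controls. BLY5 was labelled In2 at 5 days and In4 at 31 days, and its 31-day control had a rho of 0.41 with BLY5 and 0.04 with B4, the In4 fragment of 5 days. The labels of the 5-day controls were used only within that day.

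The fragment that stood for each label also had features of its own. For In1, In2 and In3 it was A3, BLY5 and D3, and their other fragments were not checked for these features. With 1 fragment per label, the features at least 4-fold above all 6 other labels numbered 18, 16, 47 and 42 in In1, In2, In3 and In4, and 9, 16 and 15 in O1, O2 and O5, of 26896 tested. Those at least 4-fold below all others numbered 86, 50, 78 and 56 in the inshore labels and 122, 66 and 105 in the offshore labels. The highest of these counts was that of O1 for lower features and that of In3 for higher ones.

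The algal partner and the make-up of the libraries were compared as single values per label. The table whose name marks it as symbiont held 17.7% ± 1.62 of all counts inshore (SD, n = 4) and 17.2% ± 2.65 offshore (SD, n = 3; exact permutation p = 0.714, adjusted over 4 measures 0.8). Coral features at 1 CPM or more numbered 30874 ± 1327 inshore and 30569 ± 1510 offshore (exact permutation p = 0.8, adjusted 0.8). The 100 most abundant features held 15.99% ± 0.712 and 16.3% ± 0.955 of coral counts inshore and offshore (exact permutation p = 0.657, adjusted 0.8). None of these 3 differed beyond the spread between labels.

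Within the symbiont table, 2 sets of features alternate between libraries. These sets were chosen for doing so on the libraries outside the comparison, heated ones among them. The share of set 1 in both was 98.8%, 0.713%, 29.0% and 0.68% in In1, In2, In3 and In4, and 0.104%, 0.19% and 0.603% in O1, O2 and O5 (means 32.3% ± 46.3 and 0.299% ± 0.267, exact permutation p = 0.171, adjusted 0.686). The inshore colonies thus carried unlike algal RNA among themselves, and within In3 the fragment D6 stood at 66.0% with D3 and D5 at 9.63% and 11.4%. Coral features whose level followed either set numbered 429, of which 17 (3.96%) were separated either way, where over all features 3.33% were separated with inshore higher and a further 3.5% with offshore higher. None of the 10 features with the smallest p was among the 429. Beyond these values the part of the algae in the habitat differences was not tested.

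A last comparison asked whether features that respond to heat already differed between the habitats at 30 °C. The lists came from the 31-day libraries, which the 5-day comparison does not use, as the features that edgeR called in inshore fragments between heat and control: 391 rose (1.11% of 35219 tested) and 445 fell (1.26%). Of the 335 risen features tested in the 5-day controls, 241 were higher inshore and 94 higher offshore, with a median difference of 0.20 log2 units. Of the 437 fallen features, 109 were higher inshore and 328 higher offshore, with a median of -0.19. Over all 27608 features, 14196 were higher inshore and 13412 higher offshore, with a median of 0.01. Among the risen features, 12 were separated with inshore higher and 4 with offshore higher (3.58% and 1.19%), and among the fallen features 5 and 35 (1.14% and 8.01%). Over all features tested these shares were 3.33% and 3.5%.

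The habitats overlapped on the risen list and not on the fallen list. Relative to the mean of the 7 labels, the median level of risen features was 0.12, 0.22, 0.06 and -0.12 log2 units in In1, In2, In3 and In4, and -0.38, -0.12 and 0.16 in O1, O2 and O5. O5 lay above 3 of the 4 inshore labels, and O1 lay lowest. The median level of fallen features was -0.08, -0.02, -0.07 and 0.00 in the inshore labels and 0.25, 0.07 and 0.02 in O1, O2 and O5, with In4 and O5 close to each other. Without O1 the median differences were 0.06 for risen and -0.10 for fallen features, and without O5 they were 0.37 and -0.25. Leaving out O1 moved both by more than 1.5 times, and leaving out O5 the first alone. O1 is the tag C1, which has no library at 31 days.

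**Figure D5:**
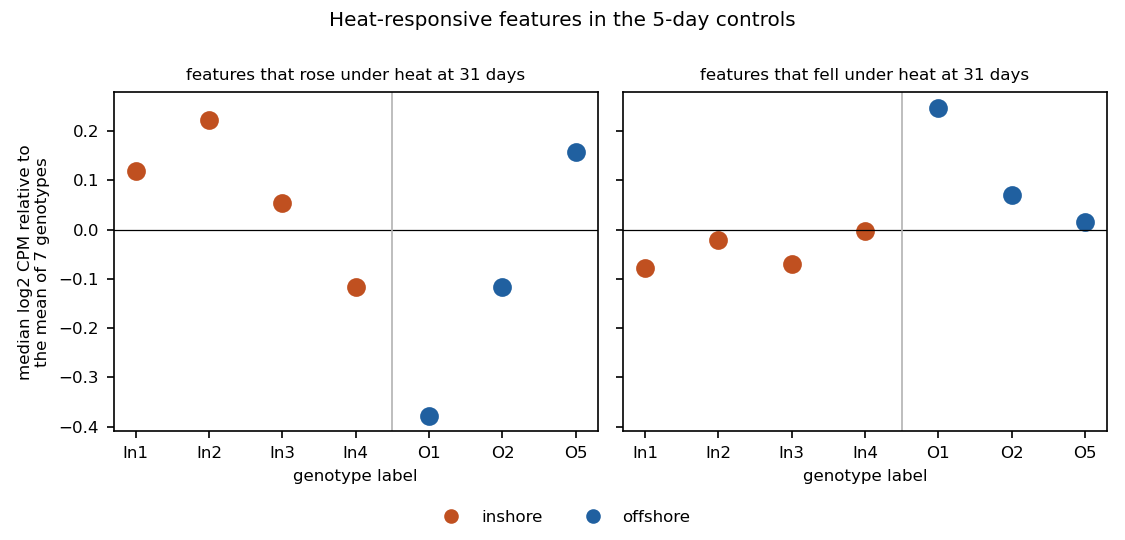
Median log2 CPM of the heat-responsive features of 31 days in the 5-day controls, relative to the mean of the 7 labels, 1 point per genotype label, with inshore labels left of the line and offshore labels right of it. For risen features (left panel) O1 is lowest at -0.38 and O5 stands at 0.16 among the inshore labels. For fallen features (right panel) O1 is highest at 0.25.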

How the data were processed

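Whole-tissue RNA libraries came as 2 deposited tables of estimated counts per assembled sequence, coral and symbiont. The table names carry kallisto, whereas Trimmomatic 0.36 and RSEM stand in the submitters' processing notes. Aligner and reference were not given in the sources used here. Of the authors' estimated counts for coral, 23.6% were not whole, and all were rounded. A coral column, headed BL6, was taken for the sample left over, BLY6 of the 5-day controls.

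Counts were summed per genotype label and tested with edgeR 4.0.16 in R 4.3.3 (TMM, filterByExpr on habitat, quasi-likelihood test, two-sided, Benjamini-Hochberg at 0.05). Log2 values carry a prior count of 2. Alternatives were DESeq2 1.42.0, limma 3.58.1 with the label as a random effect, other scaling, no filter, single fragments, summed components and leaving out labels. Sums by assembly gene cluster equal the feature counts, since each cluster holds 1 feature. Permutation tests are exact and two-sided. The code was tested on simulated counts with known changes. The members, lists and tests were chosen with earlier results of these data known. Features are named by rule: on each side the 5 of smallest p, given as not past the threshold because fewer than 5 passed; others are said to be chosen by their values. No molecular identifiers were used, so counting intervals leave out every other error. Where nothing says that fragments of a label came from separate colonies, their spread may be technical.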

Additional observations from a re-analysis of the deposited data

Results flagged for a closer look

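In 3 of 19 groups checked, of 4 inshore labels or 9 inshore fragments, 1 member stood apart from the others by more than Dixon's limit. Chance alone sets off about 1 in 20 such groups. All 3 were groups of 4 labels, for features named by smallest p. OFAVBQ_DN218230_c4_g4_i1 was highest in In3, at 8.60 CPM, with the other 3 inshore labels at 6.61 to 6.91 CPM. OFAVBQ_DN199192_c0_g1_i1 was highest in In4, at 0.192 CPM, which is 1 count in B4, with the other inshore labels at 0. OFAVBQ_DN205064_c4_g1_i2 was lowest in In3, at 0.693 CPM, with the others at 0.93 to 0.96 CPM. None of these changes the side on which the inshore labels lay.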

How the results depend on the processing

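The count of features called between the habitats at 5 days was 0, and it depended on the tool and the unit. DESeq2 called 204, edgeR without a filter 3 (OFAVBQ_DN199192_c0_g1_i1, OFAVBQ_DN212752_c2_g1_i6 and OFAVBQ_DN218230_c4_g4_i1), edgeR on 12 fragments as if independent 14, limma with the label as a random effect 4, and sums per read component 1 (OFAVBQ_DN212752_c2). Leaving out 1 label gave 0 to 3 (3 without In1, 1 without O2). Gene clusters gave the same values. Separated features numbered 568 of 30539 tested with fragments as units. Without 1 label they numbered 2767 (of 26052 tested, without In3) to 6188 (of 33576 tested, without O5), since fewer labels overlap less, by chance too. Habitat's share of the squared distance was 20.7% to 23.4% without 1 label. In the heated arm DESeq2 called 251 and leaving out labels gave 0 to 1. In 31-day controls DESeq2 called 84, edgeR without C4 3, and leaving out labels gave 0 to 3. Between the habitats the number of detected features differed by -396 to 1105 when a label was left out, reversing without In3 (-304) and without O5 (-396). The share of the top 100 differed by -0.804 to 0.127 percentage points, reversing without O5. The algal share differed by -1.02 to 1.36 points, reversing without In4 (-0.0813) and without O2 (-1.02). Set 1 differed by 9.83 to 42.5 points. The medians of the heat lists ranged over 0.057 (without O1) to 0.375 (without O5) for risen features and -0.249 (without O5) to -0.103 (without O1) for fallen ones. With no 2-fold minimum, the share of features on the inshore side in 31-day controls was 66.8% in C4, 27.8% in C2 and 36.2% in C5 (60.3%, 17.0% and 30.2% with it). The 10 named features kept their sign throughout, each passing the threshold in 1 to 4 of 23 or 24 settings. No paired analysis was possible because inshore and offshore fragments are different colonies whose numbers share nothing. The smallest p that 4 against 3 labels allow is 0.0286, and a feature at 0 counts offshore can hold up to 0.188 CPM there.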
